A study of Mus musculus with 8 samples.

Results

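The axon guidance ligands and receptors were the genes of the semaphorin, plexin, neuropilin, ephrin, Eph receptor, Slit, Robo and netrin families together with Dcc and the Unc5 receptors. They were chosen by gene symbol alone, from rows of the array table that carried a single symbol, and 69 genes were found among the 19938 genes measured. Of these, 36 encode ligands and 33 encode receptors. The rule gave 71 protein-coding genes in the RefSeq table, and the other two, Ntng2 and Ephb2, were not analysed here. Cultured hippocampal neurons of ICR mice, an outbred strain, were profiled on 8 Affymetrix Mouse Gene ST 1.0 arrays. The neurons came from embryos at E17.5, were grown for 10 days and were exposed to 50 µM bicuculline, a blocker of inhibitory GABA-A receptors that raises network firing. RNA was taken at 0, 30, 180 and 300 min of exposure, with 2 biological replicates at each time, and no sample named a vehicle control at the later times. All groups shared the strain, age, culture and agent, and whether the replicates are separate cell preparations is not stated. The p-values therefore cover only the spread between the arrays at hand.

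Axon guidance molecules steer growing axons by attraction or repulsion, and in mature neurons many of them also act at synapses and on dendritic spines. Secreted class 3 semaphorins bind neuropilins, which signal through A-type plexins, while most membrane-bound semaphorins bind plexins directly. Netrin attracts axons through Dcc and repels them when Unc5 receptors take part. Slits repel through Robo receptors, and ephrins signal with Eph receptor tyrosine kinases in both directions across a cell contact. In the hippocampus these systems are known from the layering of afferent fibres, mossy fibre pruning and spine maturation.

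The values were array signals on a log2 scale, and a difference of 1 is a 2-fold change. Signal depends on the probes as well as on the RNA, so a higher signal of 1 gene than of another was not read as more RNA. Background was set at 4.46, the 95th percentile of the mean signals of 1027 olfactory receptor genes. The mean signal of 66 of the 69 members lay above it, and that of 3 members, Sema3d, Epha1 and Robo3, did not. All 14 neuronal marker genes and all 8 astrocyte marker genes lay above it, as did 6 of 8 markers of the oligodendrocyte lineage, 5 of 7 of microglia, 4 of 8 of endothelial and mural cells, 4 of 6 of fibroblasts and 3 of 5 of dividing progenitors. The summed linear signal of the neuronal markers was 9500 to 10300 at 0 min, 10100 to 10200 at 30 min, 9170 to 9490 at 180 min and 9840 to 10100 at 300 min. That of the astrocyte markers was 913 to 1090, 910 to 975, 828 to 903 and 790 to 919. The cultures thus held signal of several cell types, and in such samples fewer cells of a type and less RNA per cell cannot be told apart.

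Few of the guidance genes changed measurably, and in the reported fit those that did passed only between pooled late and pooled early times. That pooling was chosen with earlier results of these data known. Against 0 min, none of the 69 members passed at 30, 180 or 300 min (limma, Benjamini-Hochberg adjusted p under 0.05), where 0.0953%, 0.331% and 0.286% of all genes did. At an unadjusted p under 0.05, 1 member was higher and 0 were lower at 30 min, where 2.76% of all genes were higher and 2.34% lower. At 180 min 2 members were higher and 13 lower, which is 2.9% and 18.8% of the members, beside 5.71% and 7.07% of all genes. At 300 min 3 were higher and 4 lower, or 4.35% and 5.8%, beside 4.25% and 4.71% of all genes. None passed between 30 and 180 min, where 0.502% of all genes did, and at an unadjusted p under 0.05 2 members were higher and 13 lower, beside 4.82% and 5.64% of all genes. The F test over the 4 times called 0 members and 0.813% of all genes, and the smallest adjusted p among members was 0.0606, for Unc5b. When the 4 arrays of 180 and 300 min were compared with the 4 arrays of 0 and 30 min, 4 members passed, 1 higher and 3 lower, which was 5.8% of the members beside 2.22% of all genes (1.2% higher and 1.01% lower). At an unadjusted p under 0.05, 2 were higher and 15 lower, or 2.9% and 21.7%, beside 6.32% and 8% of all genes. The 4 that passed were Unc5b, which rose 1.39-fold, and Plxna2, Dcc and Plxna1, which fell to 0.705, 0.731 and 0.745 of their early signal. Most members lay above background, where lower values were more common. Of genes above background, 9.53% were lower at an unadjusted p under 0.05 at 180 min and 5.92% at 300 min. Between 30 and 180 min 7.2% were, and late against early 10.7%. In that last comparison 3.07% of them passed, 1.46% lower. The comparisons share arrays, so their values are not independent.

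Leaving out single arrays ended most of these calls. Over all genes as well, each such fit called fewer late against early than the 442 of the full fit. Without 0 min replicate 1, and likewise without 30 min replicate 2, 0 members passed. Unc5b was the 1 member that passed without 30 min replicate 1 or without either 300 min array. Without 180 min replicate 2 Plxna2 and Unc5b passed, and without 180 min replicate 1 Plxna1, Unc5b and Sema4d did. Without 0 min replicate 2 there were 6 calls, the 4 genes with Epha6 and Plxna4. In these fits the late-against-early difference lay between 0.44 and 0.51 for Unc5b, −0.62 and −0.39 for Plxna2, −0.5 and −0.35 for Plxna1, and −0.55 and −0.35 for Dcc, and none changed sign.

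**Figure D1:**
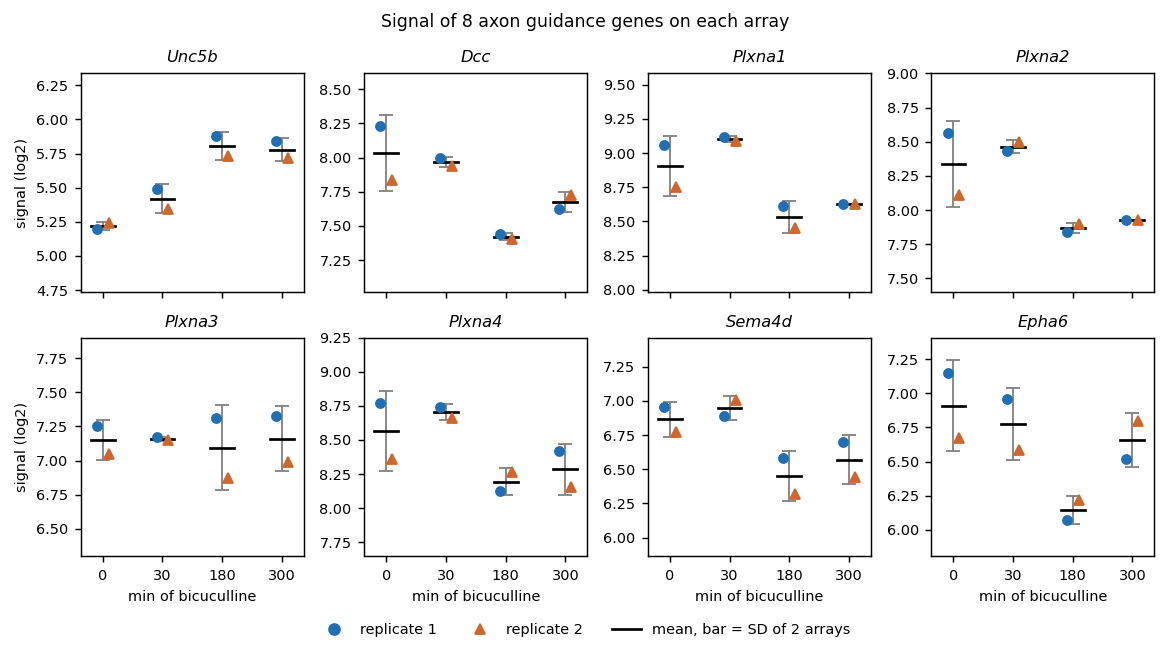
Log2 signal of 8 guidance genes on each array against minutes of bicuculline; circles and triangles are replicates 1 and 2, horizontal lines the mean and bars the SD of the 2 arrays, and every panel spans the same range of the log2 scale. Unc5b lies higher and Plxna1, Plxna2 and Dcc lie lower on all 4 late arrays than on all 4 early ones, while the late and early arrays of Plxna3 overlap.

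Among the receptors, 2 of the 4 A-type plexins, the signalling subunits for class 3 and class 6 semaphorins, passed late against early, both lower, and Plxna3 and Plxna4 did not pass. Plxna2 had signals of 8.56 and 8.11 at 0 min, 8.43 and 8.5 at 30 min, 7.84 and 7.89 at 180 min, and 7.92 and 7.92 at 300 min. All 4 late arrays lay below all 4 early arrays, and the late arrays were closer together than the 0 min arrays. Plxna2 fell from 8.4 ± 0.20 to 7.9 ± 0.039 (SD, n = 4 arrays), a log2 difference of −0.5 ± 0.10 SE (limma adjusted p = 0.0166). Plxna1 had signals of 9.06 and 8.75 at 0 min, 9.12 and 9.09 at 30 min, 8.61 and 8.45 at 180 min, and 8.63 and 8.63 at 300 min. Its groups did not overlap either, and it fell by 0.42 ± 0.092 SE (limma adjusted p = 0.0277). Plxna4 had signals of 8.77 and 8.36 at 0 min, 8.74 and 8.66 at 30 min, 8.13 and 8.26 at 180 min, and 8.42 and 8.16 at 300 min. Its late and early arrays overlapped, since 0 min replicate 2 lay below 300 min replicate 1, and its difference of −0.39 ± 0.10 SE did not pass (limma adjusted p = 0.0696). Plxna3 had signals of 7.25 and 7.05 at 0 min, 7.17 and 7.15 at 30 min, 7.31 and 6.87 at 180 min, and 7.33 and 6.99 at 300 min. The late arrays of Plxna3 lay on both sides of the early ones, and its difference of −0.029 had a 95% interval of −0.27 to 0.21. Differences between these paralogs were not tested.

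From 30 to 180 min the log2 difference was −0.57 ± 0.13 SE for Plxna1 and −0.6 ± 0.14 SE for Plxna2, and neither passed (limma adjusted p = 0.0875 and 0.103). From 180 to 300 min the values were 0.098 and 0.056.

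Of the other plexins none passed. Plxnc1, the receptor of semaphorin 7A, had signals of 8.71 and 8.52 at 0 min, 8.73 and 8.69 at 30 min, 8.55 and 8.47 at 180 min, and 8.51 and 8.09 at 300 min, where 300 min replicate 2 was lower than all others. The B-type plexins, receptors of class 4 semaphorins, had late-against-early differences of −0.036 for Plxnb1, −0.15 for Plxnb2 and 0.029 for Plxnb3, and Plxnd1, a receptor of semaphorin 3E, had −0.043. In all, 8 of 9 plexins had a late signal below the early one, beside 51% of all genes and 55.8% of genes above background. The median difference of the plexins was −0.15, beside −0.07 over all 69 members and −0.003 over all genes.

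The netrin receptors moved in both directions. Unc5b, a repulsive netrin receptor also known from blood vessels and from cell survival, had signals of 5.2 and 5.24 at 0 min, 5.49 and 5.34 at 30 min, 5.88 and 5.74 at 180 min, and 5.84 and 5.72 at 300 min. The 30 min arrays lay above both 0 min arrays, and all 4 late arrays lay above them. Unc5b rose from 5.32 ± 0.13 to 5.79 ± 0.077 (SD, n = 4 arrays), a log2 difference of 0.47 ± 0.086 SE (limma adjusted p = 0.0102). Against 0 min alone, its differences were 0.59 ± 0.12 SE at 180 min (limma adjusted p = 0.062) and 0.56 ± 0.12 SE at 300 min (limma adjusted p = 0.0825). With genes near background left out of the fit, both passed, with limma adjusted p of 0.0349 and 0.0437.

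Dcc, the attractive netrin receptor, had signals of 8.23 and 7.84 at 0 min, 8 and 7.94 at 30 min, 7.44 and 7.4 at 180 min, and 7.63 and 7.73 at 300 min. All late arrays lay below all early arrays, and the 300 min arrays lay between those of 180 min and the early ones. Dcc fell from 8 ± 0.17 to 7.55 ± 0.15 (SD, n = 4 arrays), a log2 difference of −0.45 ± 0.097 SE (limma adjusted p = 0.0252). At 180 min alone it was −0.61 ± 0.14 SE against 0 min (limma adjusted p = 0.0846), and −0.42 without 0 min replicate 1. Of the other Unc5 receptors, Unc5a had a late-against-early difference of −0.061 and Unc5c one of 0.06. Unc5d had signals of 7.85, 7.64, 7.94 and 7.91 on the early arrays and 7.48, 7.57, 7.58 and 7.59 on the late ones. These did not overlap, but its difference of −0.28 ± 0.085 SE did not pass (limma adjusted p = 0.114). A second, dimmer transcript cluster of Unc5d differed by −0.4.

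The promoter windows of Unc5b and Plxna2, which passed late against early, are shown with that of Plxna3, an A-type plexin with no measurable difference. Plxna1 and Dcc also passed, but the promoter set used held no window for them, so they were not searched. Each window shown runs from 250 bases before to 50 bases after the gene start (GRCm38.p6), 5′ to 3′ on the strand of the gene. Capitals mark matches to the letters GCGNGGGCG of an Egr motif. The Unc5b window is chr10:60831532-60831831 on the minus strand, the Plxna2 window chr1:194619579-194619878 on the plus strand and the Plxna3 window chrX:74328816-74329115 on the plus strand.
Unc5b: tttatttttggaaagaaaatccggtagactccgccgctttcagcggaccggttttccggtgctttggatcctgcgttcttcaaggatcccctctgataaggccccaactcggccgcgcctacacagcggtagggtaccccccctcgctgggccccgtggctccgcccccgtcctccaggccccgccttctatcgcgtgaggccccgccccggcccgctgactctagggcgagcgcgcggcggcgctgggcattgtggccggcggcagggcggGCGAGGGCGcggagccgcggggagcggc
Plxna2: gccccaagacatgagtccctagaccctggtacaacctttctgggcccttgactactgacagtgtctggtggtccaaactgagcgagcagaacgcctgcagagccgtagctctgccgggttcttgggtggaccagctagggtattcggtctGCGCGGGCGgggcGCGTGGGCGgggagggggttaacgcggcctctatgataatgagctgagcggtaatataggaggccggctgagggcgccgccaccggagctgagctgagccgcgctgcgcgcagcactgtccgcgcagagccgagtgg
Plxna3: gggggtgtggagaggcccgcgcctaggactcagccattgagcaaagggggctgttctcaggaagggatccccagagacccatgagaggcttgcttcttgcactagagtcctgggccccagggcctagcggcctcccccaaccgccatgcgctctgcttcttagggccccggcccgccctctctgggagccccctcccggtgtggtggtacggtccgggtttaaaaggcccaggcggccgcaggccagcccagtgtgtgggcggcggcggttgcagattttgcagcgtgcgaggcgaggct

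Egr factors are transcription factors encoded by immediate-early genes of neuronal activity. The motif was searched on both strands, and it occurred at 2 places in the Plxna2 window and 1 in the Unc5b window. No match was found in the Plxna3 window. Plxna1 and Dcc had no window to search. The motif occurred in windows of 14 members, and of these only Unc5b and Plxna2 passed. Slit2, Slit3, Plxnb2 and Plxnc1 were among the others. The windows of Epha6, Epha4 and Sema4d, which did not pass either, held no match to the Egr motif. Of 75 windows of 59 members, 18.7% held the motif, and of 32851 windows of the same length in the RefSeq set, 5.55% did. The motif is rich in G and C, and the windows of the members had a median GC content of 64.0% against 52.7% for the whole set, a difference whose part in the count of matches was not tested. The cAMP response element TGACGTCA occurred in 1.33% of the member windows and 1.79% of the whole set, its part TGACG, which every full element contains, in 13.3% and 20.8%, the AP-1 motif TGANTCA in 4.0% and 7.81%, and the E-box CACGTG in 6.67% and 7.15%. None of these 4 was found in the 3 windows shown. Among windows not shown, that of Epha4 held TGACG and the first of Sema4d held the AP-1 motif. A match describes the letters only.

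**Figure D2:**
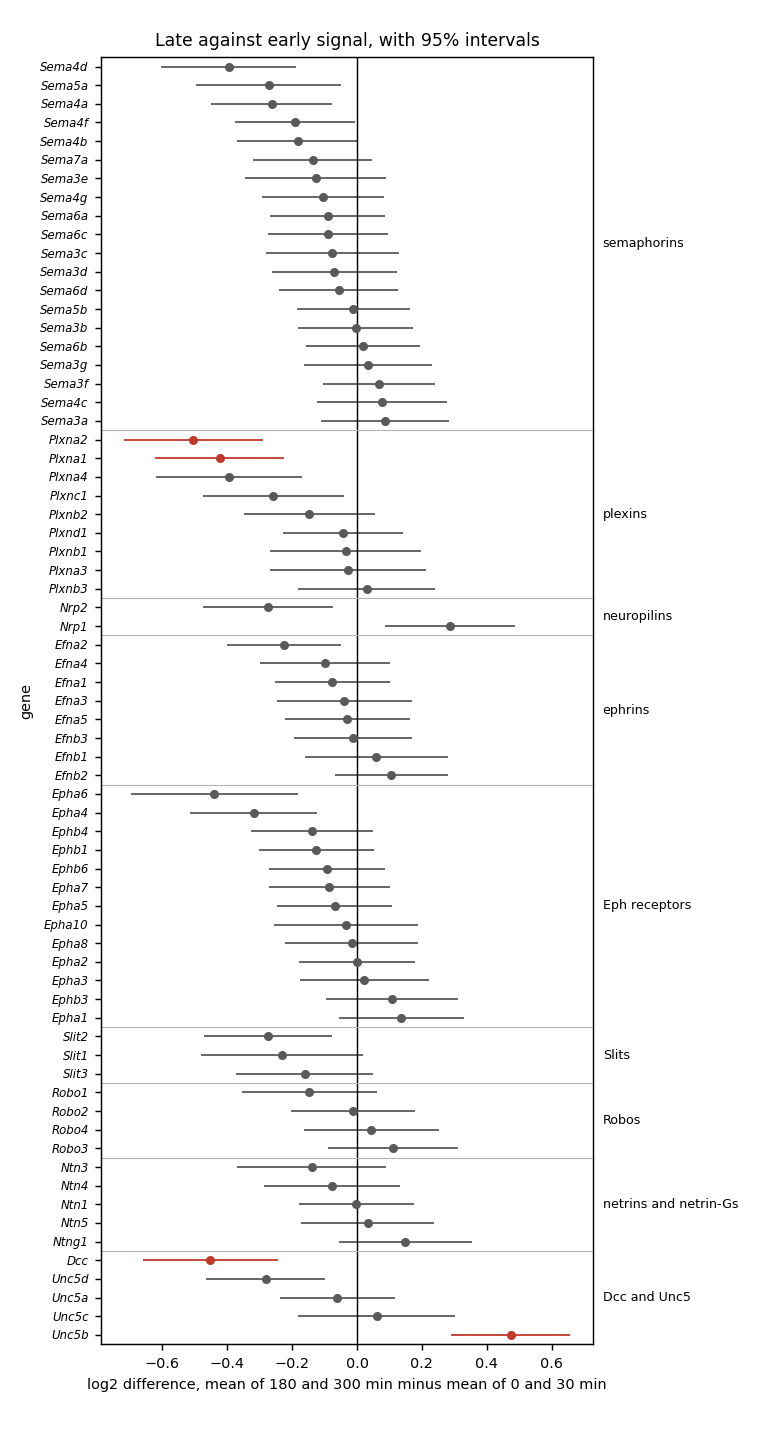
Log2 difference of each of the 69 genes, mean of the 180 and 300 min arrays minus mean of the 0 and 30 min arrays, as a point with its 95% interval from the limma fit, ordered by family. The 4 red genes passed at an adjusted p under 0.05; Unc5b lies to the right of 0, and Plxna2, Plxna1 and Dcc lie to the left.

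The neuropilins, which bind class 3 semaphorins and hand the signal to A-type plexins, differed in opposite directions, and neither passed. Nrp1 had signals of 8.85 and 8.76 at 0 min, 8.59 and 8.74 at 30 min, 8.91 and 8.99 at 180 min, and 9.24 and 8.94 at 300 min. All 4 late arrays lay above the early ones, and its difference was 0.29 ± 0.093 SE (limma adjusted p = 0.143). Nrp2 had signals of 8.71 and 8.46 at 0 min, 8.61 and 8.62 at 30 min, 8.3 and 8.13 at 180 min, and 8.54 and 8.33 at 300 min. Its groups overlapped, and the difference was −0.27 ± 0.093 SE (limma adjusted p = 0.163).

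Of the 20 semaphorins none passed in any comparison. At 180 min 17 of them lay below their 0 min signal, with a median log2 difference of −0.13, and at 300 min 15 did, with a median of −0.033. Of all genes 50.1% and 50.6% lay below at these times, and of genes above background 58.4% and 53.9%. The 6 class 4 semaphorins, membrane proteins with roles in synapse formation, had a median late-against-early difference of −0.19, and the 7 secreted class 3 semaphorins had one of −0.0045. Sema4d, a ligand of plexin B1, had signals of 6.95 and 6.78 at 0 min, 6.89 and 7.01 at 30 min, 6.58 and 6.32 at 180 min, and 6.7 and 6.44 at 300 min. The late arrays all lay below the early ones, and the difference of −0.4 ± 0.098 SE missed the threshold (limma adjusted p = 0.0514). It passed when all transcript clusters of a gene were averaged, and a second cluster of Sema4d also differed by −0.4. Sema4a had signals of 7.28 on each early array and of 7.1, 6.85, 7.02 and 7.1 on the late ones, a difference of −0.26 ± 0.087 SE (limma adjusted p = 0.15). Sema3a, a secreted repellent, had a difference of 0.086 with a 95% interval of −0.11 to 0.28, and Sema3f, a ligand of neuropilin 2, one of 0.068 with an interval of −0.10 to 0.24. Sema6b, a ligand of A-type plexins, had signals of 7.98 and 7.99 at 0 min, 8.11 and 8.04 at 30 min, 7.89 and 7.93 at 180 min and 8.24 and 8.13 at 300 min, and the table listed the same values under 2 cluster numbers. Sema6d was the semaphorin with the smallest p at 30 min, at −0.23 against 0 min (limma adjusted p = 0.957).

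Among the 13 Eph receptors none passed, and 11 lay below their 0 min signal at 180 min (median −0.12), against 8 at 300 min (median −0.056). Beside these, 50.1% and 50.6% of all genes lay below, and 58.4% and 53.9% of genes above background. Epha6 had signals of 7.15 and 6.68 at 0 min, 6.96 and 6.59 at 30 min, 6.07 and 6.22 at 180 min, and 6.52 and 6.79 at 300 min. Both 180 min arrays lay below all others, while 1 of the 300 min arrays lay below the early ones and the other among them. Its difference at 180 min was −0.77 ± 0.17 SE (limma adjusted p = 0.0835), and −0.53 without 0 min replicate 1. From 180 to 300 min it was 0.51 ± 0.17 SE higher (limma adjusted p = 0.852). Epha4, a receptor of both ephrin classes that restrains spines, had signals of 8.6 and 8.39 at 0 min, 8.49 and 8.42 at 30 min, 8.13 and 7.98 at 180 min, and 8.37 and 8.16 at 300 min. The late arrays lay below the early ones, and the difference of −0.32 ± 0.091 SE did not pass (limma adjusted p = 0.0951). Epha7 was at 7.26 and 7.04 at 0 min, 6.91 and 7.02 at 30 min, 6.78 and 6.89 at 180 min, and 7.12 and 7.1 at 300 min, and both 180 min arrays lay below all others. Epha5, a receptor of A-type ephrins, had a late-against-early difference of −0.069 with a 95% interval of −0.25 to 0.11. The largest difference of an EphB receptor against 0 min was that of Ephb4 at 300 min, −0.29 ± 0.12 SE (limma adjusted p = 0.497). A second cluster of Ephb1, below background with a mean of 3.9, was 0.35 above 0 min at 180 min, where the main cluster was at −0.26.

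The 8 ephrins, the membrane-anchored partners of the Eph receptors, had late-against-early differences from −0.23 to 0.11. Efna2 had signals of 6.6, 6.69, 6.74 and 6.83 on the early arrays and 6.42, 6.52, 6.5 and 6.53 on the late ones. The groups did not overlap, and the difference of −0.23 ± 0.083 SE did not pass (limma adjusted p = 0.206). Efnb3, a ligand at hippocampal synapses, had a difference of −0.013 with a 95% interval of −0.20 to 0.17, and Efnb2 one of 0.11 with an interval of −0.069 to 0.28.

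All 3 Slits, secreted repellents, had a lower late than early mean, beside 51% of all genes, and none passed. Slit2 had signals of 8.21 and 7.89 at 0 min, 7.98 and 7.88 at 30 min, 7.67 and 7.65 at 180 min, and 7.82 and 7.72 at 300 min. The late arrays lay below the early ones, with a difference of −0.28 ± 0.092 SE (limma adjusted p = 0.158), and at 180 min its difference from 0 min was −0.39, or −0.23 without 0 min replicate 1. Slit1 differed by −0.23 and Slit3 by −0.16. Their receptor genes Robo1, Robo2, Robo3 and Robo4 differed by −0.15, −0.013, 0.11 and 0.044, and none passed. Robo1 had signals of 8.44 and 8.08 at 0 min and of 8 and 8.12 at 180 min. Robo4, known from endothelium, had a signal of 4.83 on 180 min replicate 1 and of 4.38 to 4.6 on the other arrays.

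The netrins themselves did not pass. Ntn1, the ligand of Dcc and Unc5b, had signals of 5.45 and 5.55 at 0 min, 5.71 and 5.76 at 30 min, 5.63 and 5.7 at 180 min, and 5.61 and 5.51 at 300 min. The 30 min arrays lay above those of 0 min, by 0.24 ± 0.12 SE (limma adjusted p = 0.957). Ntng1, a membrane-anchored netrin-G of axons, was 0.33 ± 0.14 SE above 0 min at 30 min (limma adjusted p = 0.929), the smallest unadjusted p of any member at that time, and 0.32 and 0.31 above it at 180 and 300 min. Without 30 min replicate 2 the value at 30 min was 0.18, and without 0 min replicate 2 it was 0.22 at 30 min and 0.19 at 300 min. A second transcript cluster of Ntng1 differed in the opposite direction, with values of −0.041, −0.17 and −0.27 at these times. Ntn4, a secreted netrin of basement membranes, had a late-against-early difference of −0.077 with a 95% interval of −0.29 to 0.13.

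**Figure D3:**
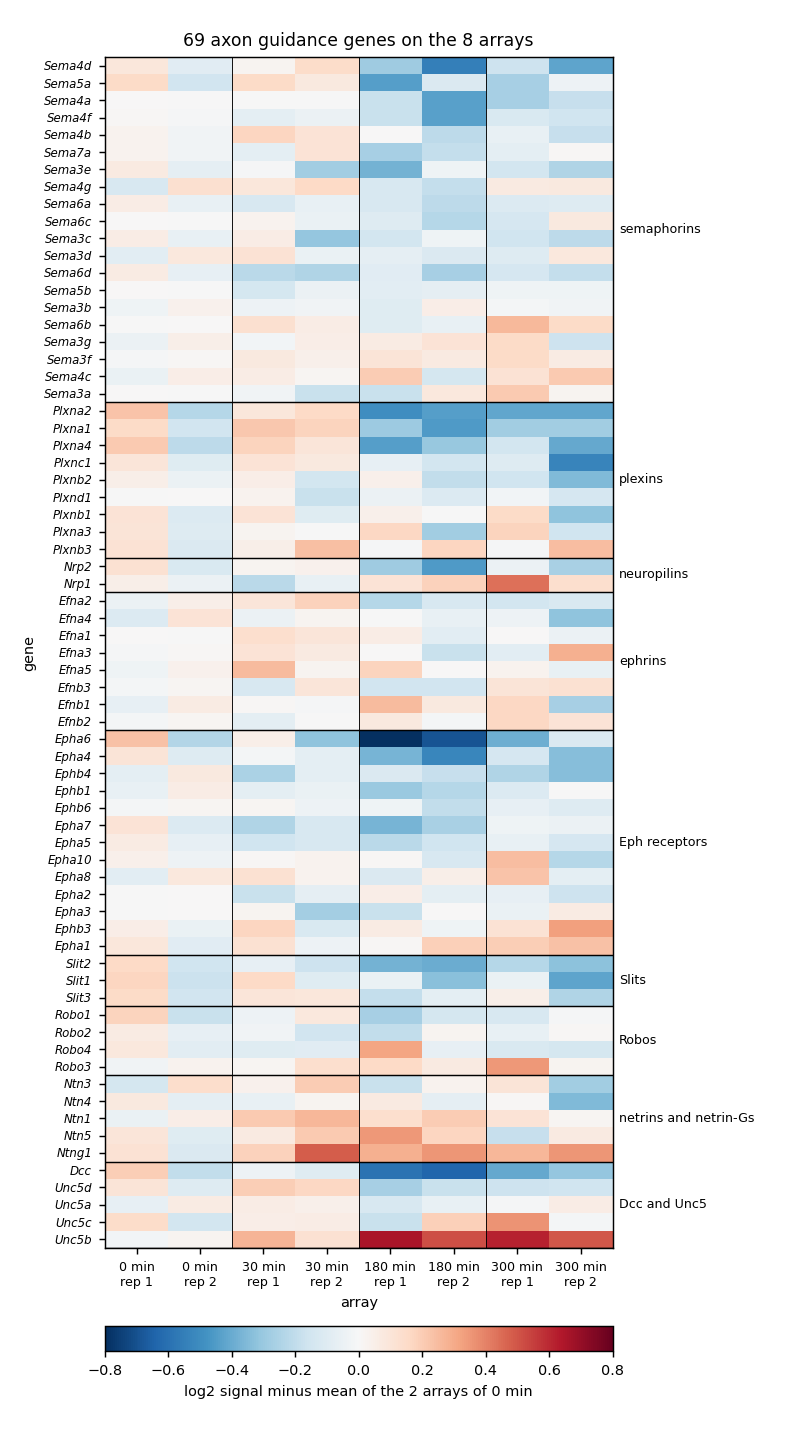
Log2 signal of the 69 genes on the 8 arrays minus the mean of the 2 arrays of 0 min, by family and within a family by late-against-early difference; blue is lower and red is higher. The 180 min columns are mostly blue, with 50 of 69 genes below 0 in their mean, and the Unc5b row is red in all 4 late columns.

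Across the whole set, the 69 members had a median log2 difference from 0 min of 0.015 at 30 min, −0.09 at 180 min and −0.056 at 300 min, and the medians over all genes were 0.00056, −0.00071 and −0.0025. At 180 min 50 of the 69 members (72.5%) lay below 0, against 50.1% of all genes, and at 300 min 47 (68.1%) did, against 50.6%. Among genes above background, 58.4% lay below 0 at 180 min, beside 49 of the 66 members above it, or 74.2%. Both 180 min arrays lay below both 0 min arrays in 26 members, or 37.7%, and in 22.6% of all genes. They lay above them in 9 members, or 13%, beside 21.1%. Both 300 min arrays lay below both 0 min arrays in 23 members, or 33.3%, beside 19.6%, and above them in 11, or 15.9%, beside 18.8%. All 4 late arrays lay below all 4 early ones in 10 members, or 14.5%, and in 5.36% of all genes, and above them in 2, or 2.9%, beside 3.47%. Of the 13601 genes above background, both 180 min arrays lay below both 0 min arrays in 3910. Both 300 min arrays did so in 3092, and all 4 late arrays lay below all 4 early ones in 1001. Ligands and receptors had the same median at 180 min, −0.09 each. At an unadjusted p under 0.05 (limma), 27.3% of receptors and 11.1% of ligands were lower then, beside 7.07% of all genes. All 4 members that passed late against early were receptors, 12.1% of the 33, beside 2.22% of all genes. Whether ligands and receptors differed was not tested. From 180 to 300 min 49 members (71%) were higher and 20 lower, with a median of 0.065. Over all genes 52.5% were higher, with a median of 0.01, and over genes above background 59% were, with a median of 0.032. No member passed, and neither did any other gene of the table (limma). At an unadjusted p under 0.05, 4 members were higher and 1 was lower in that comparison, beside 2.33% and 3.4% of all genes. The median at 30 min was 0.046 without 0 min replicate 1 and −0.026 without 0 min replicate 2. The median deviation of the members from their own mean over the arrays was 0.056 on 0 min replicate 1 and 0.003 on replicate 2, and for the receptors it was 0.11 and −0.016.

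Partners of these receptors were taken from a list of 70 genes of intracellular mediators and co-receptors, of which 66 were measured. None passed at 30, 180 or 300 min against 0 min. At an unadjusted p under 0.05, 10 partners were lower and 1 higher at 180 min, or 15.2% and 1.52%, beside 7.07% and 5.71% of all genes. At 300 min 5 were lower and 1 higher, or 7.58% and 1.52%, beside 4.71% and 4.25%. At 30 min 1 partner was lower, or 1.52%, and 0 were higher, beside 2.34% and 2.76% of all genes. Of genes above background, 9.53% were lower at 180 min and 5.92% at 300 min. Between late and early arrays 2 of the 66 passed, both lower, a share of 3.03%. Of all genes 1.01% were called lower and 2.22% in either direction, and the partners' share rests on 2 genes. Cntn2, a cell adhesion molecule of axons, had signals of 7.95, 7.66, 7.98 and 7.8 on the early arrays and 7.51, 7.13, 7.29 and 7.3 on the late ones, and it fell by 0.54 ± 0.11 SE (limma adjusted p = 0.0144). Mical3, of the family of oxidases that act on actin downstream of plexins, had signals of 6.7, 6.38, 6.73 and 6.66 on the early arrays and 6.24, 6.09, 6.12 and 6.3 on the late ones, and it fell by 0.43 ± 0.096 SE (limma adjusted p = 0.0314). The call of Cntn2 was lost without 4 of the 8 arrays in turn and that of Mical3 without 5, with highest adjusted p of 0.0987 and 0.151, both without 30 min replicate 1. At 180 min the partners with the smallest p were Rock1, a kinase that acts on the actin cytoskeleton (−0.51 ± 0.13 SE, limma adjusted p = 0.124), Cntn2 (−0.49), Mical3 (−0.37) and Flrt2, an Unc5 ligand (−0.32). At 300 min they were Draxin, a secreted Dcc ligand (−0.48 ± 0.13 SE, limma adjusted p = 0.219), Cntn2 (−0.51), Lrrc4, a netrin-G ligand (0.28), and Mical3 (−0.33). The partners' median was −0.095 at 180 min and −0.028 at 300 min.

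**Figure D4:**
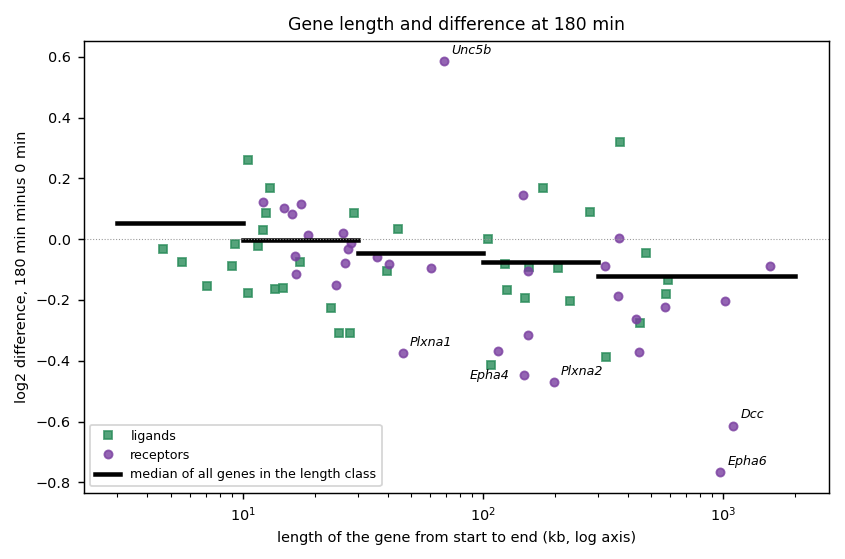
Log2 difference between 180 and 0 min of each of the 69 genes against the length of its gene in kilobases on a log axis, with ligands as squares and receptors as circles; black lines are the medians of all genes in 5 length classes. The medians of all genes go down from 0.052 to −0.12 with length, and Dcc and Epha6 lie at the long end below that line.

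Guidance genes are long, and length went with the difference at 180 min in the whole table. The median length in the RefSeq table (GRCm38.p6) was 46.3 kb for the members and 17.7 kb for all 19856 genes with an entry, and 46.4% of the members exceeded 100 kb, against 11.6% of all genes. At 180 min the median log2 difference of all genes was 0.052 in those under 10 kb and −0.12 in those over 300 kb, where the 16 members of that class had a median of −0.2. Over the 69 members the rank correlation of length with the difference at 180 min was −0.4, and over all genes it was −0.27. The rank correlation of the mean signal of a member, as a measure of brightness on the array, with that difference was −0.56. These points share arrays and probe design, and the correlation is a description. With the length trend removed from every array, an alternative added after seeing the data, the members' median at 180 min was −0.06. In the late-against-early comparison Unc5b, Plxna2 and Plxna1 then passed (0.5, −0.45 and −0.41; limma adjusted p = 0.00693, 0.0298 and 0.0372), and Dcc, a gene of 1100 kb, did not (−0.35, adjusted p = 0.0652).

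Of the cell type markers, Slc17a6, a vesicular glutamate transporter gene, was the 1 gene that passed between late and early arrays, where it rose by 0.38 ± 0.089 SE (limma adjusted p = 0.0406). The medians of the astrocyte and neuronal lists were −0.12 and 0.0061 in that comparison. The part of cell composition in the guidance results was not tested.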

How the data were processed

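Signals came from 8 Affymetrix Mouse Gene ST 1.0 arrays hybridised with biotin-labelled total RNA, per the labels' protocols. The deposited values were 1 log2 signal per transcript cluster and array, and the base of the log was taken from the values. The authors' background correction, normalization, software and build are not given in the sources used here, and residual background would shrink the changes of dim genes. Array medians over the 35399 rows lay between 4.84 and 4.88, and replicates correlated at 0.985 to 0.99. No normalization was added. The annotation gave 1 symbol for 21789 rows. For genes with several clusters, 6 members among them, the brightest cluster by its mean was used. A mean per time was fitted to all 8 arrays with limma 3.58.1 in R 4.3.3 (lmFit, eBayes; residual df 4, prior df 10.1), and p-values (two-sided) were adjusted by Benjamini-Hochberg across the 19938 genes; 0.05 was the threshold. SE is limma's moderated error. With 2 arrays a time, their number limits precision. The fit was tested on simulated data.

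The genes named were those that passed, the 8 members with the smallest p in each comparison with 0 min, and the member with the highest mean signal and with the smallest F test p of each family; of the partners, those that passed and the 4 with the smallest p at 180 and 300 min. A few other members are named to complete a family. The members and lists, and the pooling of late and early times, were chosen with earlier results of these data known.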

Additional observations from a re-analysis of the deposited data

How the results depend on the processing

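In the late-against-early comparison, 4 members passed in the reported fit, 7 with dim genes left out, 8 with a variance trend and robust prior, 0 when every row was tested, and 0 to 6 without 1 array. Over all genes that comparison called 442 in the reported fit and 614 with dim genes left out. With the variance trend it called 612, and 40 when every row was tested. The counts of members thus went up and down with those of all genes. With dim genes left out, 1 member passed at 180 min, 1 at 300 min and 1 in the F test. Over all genes 102 passed at 180 min and 99 at 300 min in that fit. With the variance trend, 2 members passed at 180 min, 3 between 180 and 30 min and 4 in the F test. There 108 of all genes passed at 180 min and 156 between 180 and 30 min. With the length trend removed, 1 passed in the F test and the median at 180 min was −0.06. No count over all genes is given here for the F test in these settings. Without 1 array the F test called 0 to 1 members, and the members' median ranged from −0.026 to 0.046 at 30 min, −0.11 to −0.081 at 180 min and −0.1 to −0.043 at 300 min. Over 544 combinations of a named gene, a comparison and a setting, 0 changed direction, 38 lost the call and 7 gained it. These combinations do not cover every comparison of every named gene. The late-against-early differences of Sema4d, Epha6 and Plxna4 are not among them, so calls gained there are not counted. Among the combinations, only the late-against-early calls of the 4 members and of 2 partners, Cntn2 and Mical3, could be lost. All 38 losses fell on these, so 38 is not to be read as a share of 544.

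Replicate numbers gave no sign of pairing: between times, deviations of same-numbered arrays correlated at −0.094 to 0.092. Such correlations cannot exclude that same-numbered arrays shared a preparation. With the replicate number as a block, 5 members passed between late and early arrays (Sema4d in addition) and 0 in each other comparison. Over all genes 442 passed between late and early arrays in that fit, as many as in the reported one.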
